A study of Mus musculus with 6 samples.

Results

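The nuclear genes of respiratory complex I and of its assembly were examined in reperfused mouse hearts, with and without dexmedetomidine before the ischaemia. Members were all genes of the count table whose mouse symbol begins with Ndufa, Ndufb, Ndufc, Ndufs or Ndufv, without symbols ending in -ps. This gave 49 of 37620 genes, of which 41 carry subunit names and 8 are assembly factors (Ndufaf). Among the 41, 36 code for established subunits. Ndufa4 and Ndufa4l2 code for proteins that are not part of the mature complex, and Ndufa11b, Ndufb4c and Ndufs6b are copy genes. The subunit gene Ndufb1 was not analysed here.

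RNA sequencing libraries came from the apex of hearts of WT C57/BL6J mice in which the myocardium had been ischaemic, that is without its blood supply, for 30 min and reperfused for 120 min, with 3 libraries in each group. Mice of the dexmedetomidine group were given the vehicle of yohimbine, an alpha-2 adrenergic antagonist, and 30 min later 10 µg/kg of dexmedetomidine, an alpha-2 agonist used as a sedative. Their surgery began 20 min after the drug. Mice of the vehicle group were given the vehicles of yohimbine and of dexmedetomidine one apart from the other ahead of the same surgery, at times that the labels do not state. Infusions went slowly into the tail vein, within 10 min. Both groups had undergone ischaemia and reperfusion, and no heart without that injury was analysed here. The labels give neither age nor batch, and do not say that each library came from its own animal, and p-values therefore describe how far these libraries scatter, which may be technical. The comparison asks which transcripts of the reperfused heart differ with prior dexmedetomidine.

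Complex I, NADH:ubiquinone oxidoreductase, is the entry point for electrons from NADH into the mitochondrial respiratory chain, and couples their passage to ubiquinone with proton pumping. It has an N module that oxidises NADH, a Q module that reduces ubiquinone, and a membrane arm with a proximal and a distal part that pumps protons. Core subunits carry out the reaction, accessory subunits surround them, and assembly factors help build the complex without staying in it. The core of the membrane arm is encoded by the mitochondrial genome and the rest by nuclear genes. In heart muscle, which is rich in mitochondria, complex I is also known as a source of reactive oxygen species at reperfusion.

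Gene counts summed to between 42691399 and 48636790 in the dexmedetomidine libraries and between 50274670 and 56615882 in the vehicle libraries. The labelled tissue was checked with 10 cardiomyocyte markers, all detected, whose levels summed to 45070 to 49095 CPM (counts scaled to 1e+06 per library) after dexmedetomidine and to 50191 to 58083 CPM after vehicle. Markers of adipocytes summed to at most 1.00 CPM in any dexmedetomidine library and 0.277 CPM in any vehicle library. Markers of atrial cardiomyocytes reached 48.1 CPM in 1 dexmedetomidine library, against at most 1.78 CPM in the vehicle libraries. Vehicle replicate 2 held the highest level of the 6 libraries for 31 of the 36 subunits, and counts are therefore also given without it. Across genes, dexmedetomidine replicates 2 and 3 were the closest pair, their counts differing by 31.0 as a multiple of sampling noise. On this scale dexmedetomidine replicate 1 was 116 and 144 from them, but 73.0 and 62.7 from vehicle replicates 1 and 3. It was 199 from vehicle replicate 2, which was 89.9 and 162 from vehicle replicates 1 and 3. No comparison left out both dexmedetomidine replicates 2 and 3, so how far the group differences rest on them was not tested.

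Nuclear complex I genes stood lower after dexmedetomidine for most members, by small amounts, and no member passed the test across all genes. Of the 48 members that could be tested, 41 had a log2 fold change below 0, or 85.4% against 49.7% of 14738 tested genes. Their median log2 fold change was -0.27, and that of all tested genes was 0.003. Ndufv3 and Ndufa2 of the N module were lowest relative to vehicle, at -0.90 and -0.87, and the assembly factor gene Ndufaf4 was highest at 0.74. All 7 mitochondrially encoded subunits of the same complex had log2 fold changes above 0.

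EdgeR's quasi-likelihood test with Benjamini-Hochberg adjustment called 0 of 48 members at an adjusted p of 0.05, and 0% of all tested genes. The smallest adjusted p among members, and among all genes, was 0.101. At an unadjusted p under 0.05, 18 members were lower, or 37.5%, against a background of 9.03% of all genes, and 1 was higher, against 12.5%. DESeq2 called 5 members lower (Ndufa2, Ndufa12, Ndufb2, Ndufb8 and Ndufv3), where it called 2.9% of genes lower, and 1 higher (Ndufaf4), where it called 6.53% higher. Limma-voom with quality weights called the same 5 and Ndufa7, Ndufaf3, Ndufb7, Ndufb10 and Ndufc2 lower, with a background of 5.2%, and again Ndufaf4 higher, with a background of 8.79%. Without vehicle replicate 2, edgeR had 36 of 48 members below 0, against 49.5% of all genes, with a median of -0.16, and 6 lower at an unadjusted p under 0.05, against 5.14% of all genes. Without vehicle replicate 3, edgeR called 4 members lower (Ndufa2, Ndufb2, Ndufc2 and Ndufv3), against 2.19% of all genes, and Ndufaf4 higher, against 6.13%. The number lower at an unadjusted p under 0.05 was 5 without dexmedetomidine replicate 2, against 4.72% of all genes, and 5 without dexmedetomidine replicate 3, against 4.06%. Exons of 19 of the 49 members overlap another gene in GENCODE M21 (GRCm38), and whether counting used strand is not given in the sources used here, so their values are uncertain. Fewer cells of a type and less RNA per cell cannot be told apart in bulk tissue.

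**Figure D1:**
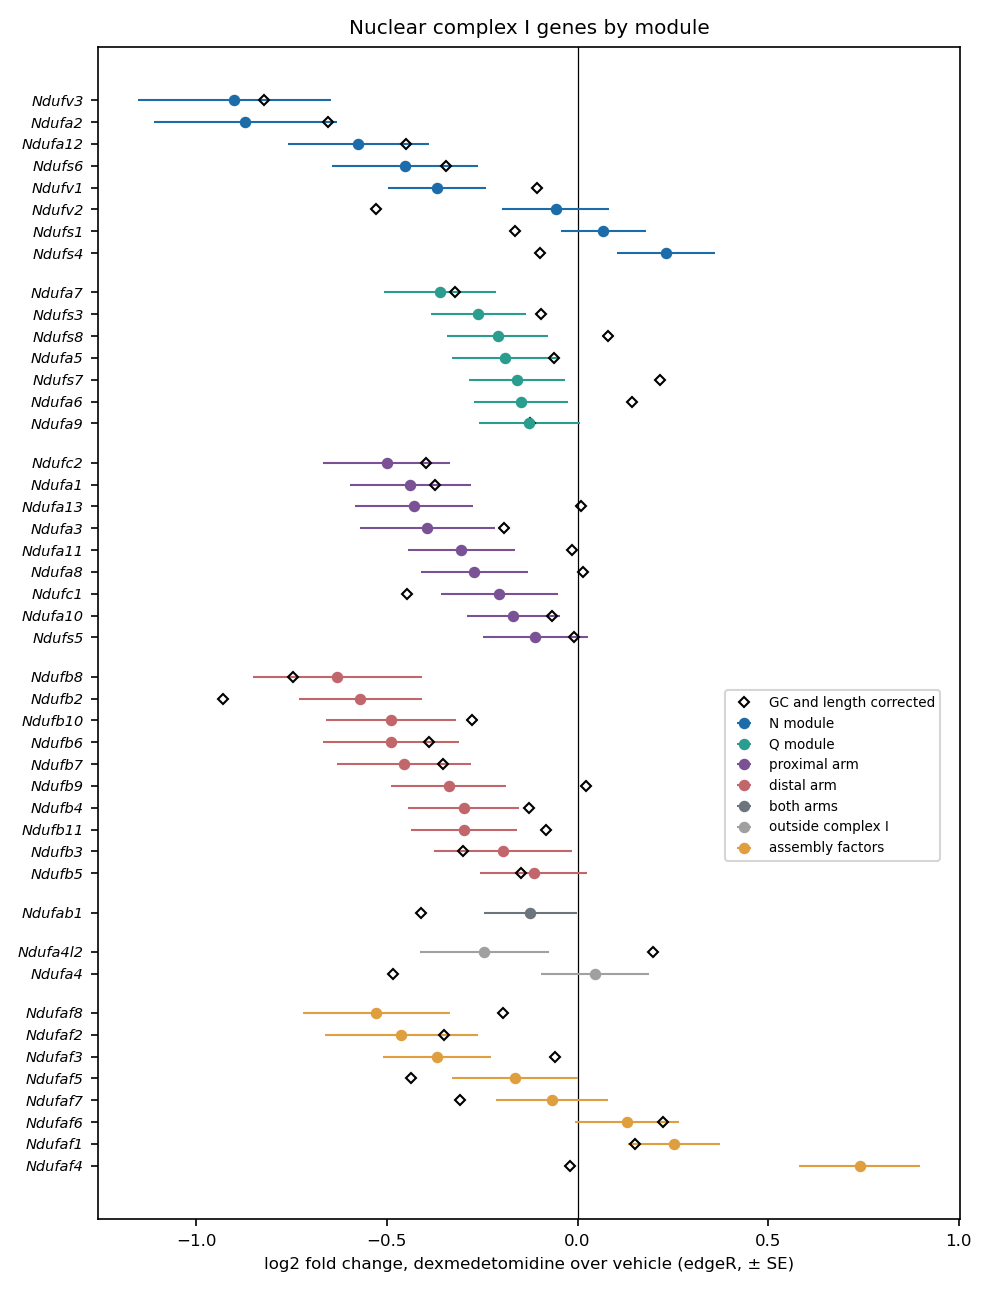
Log2 fold changes (x axis, dexmedetomidine over vehicle) of 45 members, grouped by module and ordered within it; points are edgeR estimates with bars of 1 SE, and open diamonds are estimates after correction for GC content and length. Points of the Q module, the proximal arm and the distal arm all lie below 0, Ndufv3 at -0.90 and Ndufaf4 at 0.74 mark the ends, and the diamond of Ndufaf4 lies at -0.02.

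The N module, where NADH is oxidised, held the members farthest below 0 and 2 of the few above it. Of its 8 genes 6 had log2 fold changes below 0, with a median of -0.41, and 5 were lower at an unadjusted p under 0.05, where 49.7% and 9.03% of all genes were so placed. With each library's trend with GC content and length taken out, 4 were lower at that p, against 7.71% of all genes. Ndufv3 (ENSMUSG00000024038), an accessory subunit made in alternative splice forms, stood at 114, 62.4 and 66.3 CPM in dexmedetomidine replicates 1, 2 and 3, against 129, 190.3 and 133 CPM in vehicle replicates 1, 2 and 3. Each dexmedetomidine library lay below each vehicle library, and dexmedetomidine replicates 2 and 3 lay well below replicate 1. The log2 fold change was -0.90 (SE 0.25, edgeR adjusted p = 0.115, DESeq2 adjusted p = 0.00450), -0.70 without vehicle replicate 2, and -0.82 with correction for GC content and length.

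Ndufa2 (ENSMUSG00000014294), an accessory subunit with a thioredoxin-like fold, had 143, 85.3 and 86.1 CPM in the dexmedetomidine libraries and 170.2, 244 and 161 CPM in the vehicle libraries, again without overlap, with dexmedetomidine replicate 1 and vehicle replicate 2 the highest of their groups. Its log2 fold change was -0.87 (SE 0.24, edgeR adjusted p = 0.112, DESeq2 adjusted p = 0.00452), -0.66 without vehicle replicate 2, and -0.65 with the correction. An exon of Ndufa2 overlaps Tmco6 on the other strand. Ndufa12 (ENSMUSG00000020022), an accessory subunit that takes the place held by Ndufaf2 during assembly, measured 156, 118 and 102 CPM after dexmedetomidine and 177, 225 and 158 CPM after vehicle. The groups did not overlap, though dexmedetomidine replicate 1 came within a few CPM of vehicle replicate 3, and the log2 fold change was -0.58 (SE 0.19, edgeR adjusted p = 0.131), or -0.42 without vehicle replicate 2.

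The core of the N module has 3 genes. Ndufv1 (ENSMUSG00000037916), which binds the flavin that accepts electrons from NADH, had 499.9, 476 and 436 CPM in dexmedetomidine libraries and 559.9, 696 and 567 CPM in vehicle libraries. The groups did not overlap, and its log2 fold change of -0.37 (SE 0.13, edgeR adjusted p = 0.149) was -0.26 without vehicle replicate 2 and -0.11 with the correction. Ndufs1 (ENSMUSG00000025968), which carries iron-sulfur clusters along the electron path, had 529, 597 and 556 CPM after dexmedetomidine and 542, 549 and 513 CPM after vehicle, with overlapping groups and a log2 fold change of 0.07 (SE 0.11), or -0.16 with the correction. Its exons overlap Eef1b2 and Ino80dos on the other strand. The third core gene of this module, Ndufv2, stood at a mean of 445 ± 29.8 CPM after dexmedetomidine and 464 ± 71.1 CPM after vehicle (SD, n = 3 each). Its log2 fold change was -0.06, and -0.53 with the correction (edgeR adjusted p = 0.290), farther below 0 than the -0.45 of Ndufa12 on that scale.

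Ndufs4 (ENSMUSG00000021764), an accessory subunit whose loss is a known cause of Leigh syndrome in people and whose knockout mouse is a model of it, had the highest log2 fold change of the 36 subunits. It measured 146, 177 and 180.4 CPM in the dexmedetomidine libraries and 145, 150.5 and 132 CPM in the vehicle libraries. Dexmedetomidine replicates 2 and 3 were above all vehicle libraries, but replicate 1 lay among them. The log2 fold change was 0.23 (SE 0.13, edgeR adjusted p = 0.327), and -0.10 with the correction. Ndufs6, a zinc-binding accessory subunit, had a mean of 105 ± 6.61 CPM after dexmedetomidine and 143 ± 42.2 CPM after vehicle (SD, n = 3 each), and vehicle replicate 2 alone reached 191 CPM. An exon of Ndufs6 overlaps Mrpl36 on the other strand.

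The Q module, which passes electrons to ubiquinone, had the median nearest to 0 of the 4 parts of the complex. All 8 genes had log2 fold changes below 0, from -0.36 for Ndufa7 to -0.13 for Ndufa9, with a median of -0.19, against 49.7% of all genes below 0. Of them 1 (Ndufa7) was lower at an unadjusted p under 0.05, a share of 12.5% that is near the 9.03% of all genes. Its core genes Ndufs3, Ndufs7 and Ndufs8, the last pair of which carry iron-sulfur clusters, stood at -0.26, -0.16 and -0.21 on the same scale, or -0.10, 0.22 and 0.08 with the correction. With the correction the module's median was -0.04, with 5 of 8 genes below 0.

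In the proximal membrane arm 9 of 9 genes had log2 fold changes below 0, with a median of -0.31, and 3 were lower at an unadjusted p under 0.05, where 49.7% and 9.03% of all genes were so placed. Ndufc2 (ENSMUSG00000030647), a small membrane subunit, stood at 93.8, 67.3 and 70.4 CPM in dexmedetomidine libraries and 121, 117 and 90.3 CPM in vehicle libraries. Vehicle replicate 3 was lower than dexmedetomidine replicate 1, and the log2 fold change was -0.50 (SE 0.17, edgeR adjusted p = 0.135), or -0.45 without vehicle replicate 2. Ndufa8 (ENSMUSG00000026895), a subunit on the intermembrane side, had 177, 169 and 160.2 CPM after dexmedetomidine and 189, 242 and 180.0 CPM after vehicle. The groups did not overlap, though dexmedetomidine replicate 1 came close to vehicle replicate 3. The log2 fold change of -0.27 (SE 0.14, edgeR adjusted p = 0.293) was -0.13 without vehicle replicate 2 and 0.01 with the correction. Ndufa1 and Ndufa13, the other genes of this arm with an unadjusted p under 0.05, stood at -0.44 and -0.43 on the log2 scale. With the correction Ndufa1 stood at -0.37 and Ndufa13 at 0.01. The remaining 6 genes, Ndufa8 and the nucleoside kinase relative Ndufa10 among them, lay between -0.39 for Ndufa3 and -0.11 for Ndufs5.

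The distal membrane arm, at the far end of the proton-pumping part, had 10 of 10 genes below 0, against 49.7% of all genes, and a median log2 fold change of -0.40. At an unadjusted p under 0.05, 6 were lower, against 9.03% of all genes, and 3 with the correction, against 7.71%. Ndufb2 (ENSMUSG00000002416), a small accessory subunit, measured 23.8, 18.7 and 17.4 CPM in dexmedetomidine libraries and 31.9, 31.7 and 25.4 CPM in vehicle libraries. Each dexmedetomidine library lay below each vehicle library, and the log2 fold change was -0.57 (SE 0.16, edgeR adjusted p = 0.112, DESeq2 adjusted p = 0.0312), or -0.52 without vehicle replicate 2. With the correction it was -0.93 (SE 0.20, edgeR adjusted p = 0.290), the farthest below 0 of the members. Exons of Ndufb2 overlap Braf and Gm16272 on the other strand and Gm42420 on its own, so its counts, lower than those of any other established subunit, cannot be assigned with certainty.

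Ndufb10 (ENSMUSG00000040048), an accessory subunit with disulfide bonds that faces the intermembrane space, had 311, 228 and 209.9 CPM after dexmedetomidine and 336, 405 and 311 CPM after vehicle. Dexmedetomidine replicate 1 and vehicle replicate 3 were level to the digits given, so the groups all but met. The log2 fold change was -0.49 (SE 0.17, edgeR adjusted p = 0.146), -0.37 without vehicle replicate 2, and -0.28 with the correction. Ndufb9 (ENSMUSG00000022354), a subunit of the LYR family that docks an acyl carrier protein on the complex, stood at 362, 351 and 369 CPM in dexmedetomidine libraries and 406, 565 and 398 CPM in vehicle libraries. The dexmedetomidine libraries lay close together and below the vehicle libraries, among which replicate 2 was far above the others. Its log2 fold change was -0.34 (SE 0.15, edgeR adjusted p = 0.231), -0.16 without vehicle replicate 2, and 0.02 with the correction. An exon of Ndufb9 overlaps Gm49356 on the same strand, and one of Ndufb8, which had a log2 fold change of -0.63, overlaps Gm20538. The gene with the smallest difference in this arm was Ndufb5 at -0.12.

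Ndufab1 (ENSMUSG00000030869) codes for the mitochondrial acyl carrier protein, which sits in both arms and also serves fatty acid and lipoic acid synthesis. It had 395, 389 and 387 CPM in the dexmedetomidine libraries and 425, 474 and 378 CPM in the vehicle libraries, with vehicle replicate 3 below the dexmedetomidine libraries, and a log2 fold change of -0.12 (SE 0.12, edgeR adjusted p = 0.592), -0.04 without vehicle replicate 2, and -0.41 with the correction. An exon of it overlaps Gm44986 on the other strand. By role in catalysis, 6 of the 7 nuclear core subunits had log2 fold changes below 0 with a median of -0.19. Among the 29 accessory subunits 28 did, with a median of -0.34, where 49.7% of all genes were below 0. At an unadjusted p under 0.05, 14 accessory genes were lower and 1 core gene was, against 9.03% of all genes. The difference between core and accessory genes was not tested.

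**Figure D2:**
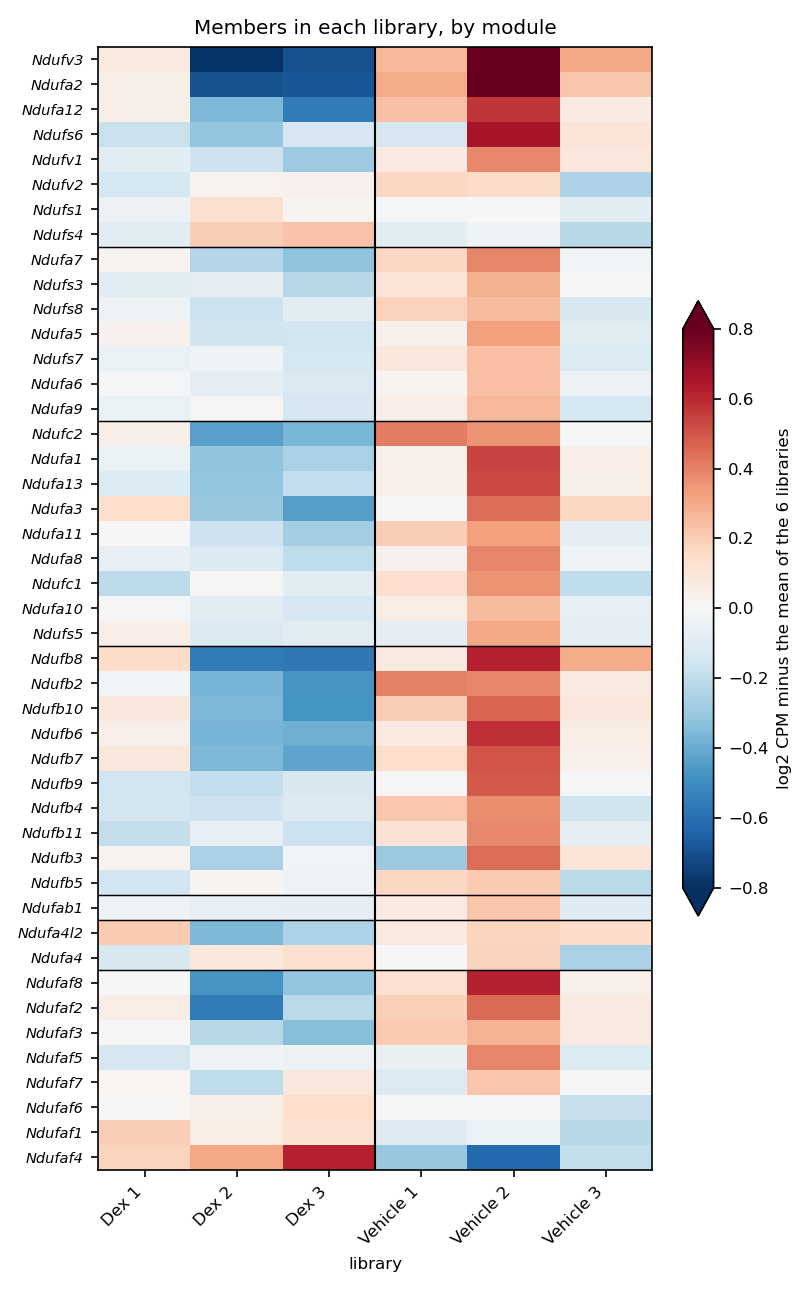
Level of each of 45 members in the 6 libraries (columns), as log2 CPM minus the mean of the libraries, with modules separated by lines in the order N, Q, proximal arm, distal arm, Ndufab1, genes outside the complex and assembly factors. Vehicle replicate 2 is the reddest column for most subunits, dexmedetomidine replicates 2 and 3 are the bluest for many, and Ndufaf4 in the bottom line has the opposite pattern.

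The 8 assembly factors named Ndufaf lay on both sides of 0. Of these 5 had log2 fold changes below 0 and 3 above, with a median of -0.12. The summed level of all 8 was 177 ± 10.1 CPM after dexmedetomidine and 167 ± 10.8 CPM after vehicle (SD, n = 3 each). Ndufaf4 alone gave means of 52.9 and 31.7 CPM of these sums. As a share of all gene counts the 8 genes made up means of 0.0169% after dexmedetomidine and 0.0175% after vehicle. Ndufaf4 (ENSMUSG00000028261), which works with Ndufaf3 in building the Q module, was higher in each dexmedetomidine library, at 45.9, 50.2 and 62.6 CPM, than in any vehicle library, at 32.9, 26.4 and 35.6 CPM. Its log2 fold change was 0.74 (SE 0.16, edgeR adjusted p = 0.101, DESeq2 adjusted p = 0.00415), or 0.62 without vehicle replicate 2. Ndufaf4 also has the lowest GC content of the members, 39.5%, and with the correction for GC content and length its log2 fold change was -0.02 (SE 0.12, edgeR adjusted p = 0.965). Its partner Ndufaf3 had 21.3, 18.2 and 16.8 CPM after dexmedetomidine and 24.6, 25.8 and 22.3 CPM after vehicle, a log2 fold change of -0.37 that was -0.06 with the correction, and an exon of it overlaps Impdh2 on the other strand.

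Ndufaf1 (ENSMUSG00000027305), part of the assembly complex for the proximal membrane arm together with Ecsit, Acad9 and Tmem126b, had 33.3, 30.2 and 31.5 CPM in dexmedetomidine libraries and 27.0, 27.9 and 24.9 CPM in vehicle libraries. The groups did not overlap, and the log2 fold change was 0.25 (SE 0.12, edgeR adjusted p = 0.256), or 0.15 with the correction. Ndufaf6 (ENSMUSG00000050323), a factor related to phytoene synthases, measured 15.4, 15.8 and 16.9 CPM after dexmedetomidine and 15.1, 15.3 and 13.4 CPM after vehicle, with dexmedetomidine replicate 1 and vehicle replicate 2 nearly level and a log2 fold change of 0.13 (SE 0.14, edgeR adjusted p = 0.617), or 0.23 with the correction.

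Ndufaf8 and Ndufaf2 lay on the other side. Ndufaf8 (ENSMUSG00000078572), which stabilises Ndufaf5, had 18.0, 13.0 and 14.4 CPM in dexmedetomidine libraries and 19.6, 27.5 and 18.5 CPM in vehicle libraries, with a log2 fold change of -0.53 (SE 0.19, edgeR adjusted p = 0.160) that was -0.33 without vehicle replicate 2 and -0.19 with the correction. Ndufaf2 (ENSMUSG00000068184), the paralogue of Ndufa12 that holds its place on late intermediates, had 9.26, 6.01 and 7.63 CPM after dexmedetomidine and 10.1, 12.1 and 9.32 CPM after vehicle, a log2 fold change of -0.46 (SE 0.20, edgeR adjusted p = 0.220), or -0.35 without vehicle replicate 2. An exon of Ndufaf2 overlaps B230220B15Rik on the other strand. Neither overlapped between groups, though for both dexmedetomidine replicate 1 came close to the vehicle range. Thus Ndufa12 and the factor it replaces were both lower in each dexmedetomidine library than in each vehicle library. The methyltransferase gene Ndufaf7 and the hydroxylase gene Ndufaf5, whose products modify core subunits of the Q module, had overlapping groups and stood at -0.07 and -0.16 on the log2 scale. Ndufaf7 was at -0.31 and Ndufaf5 at -0.44 once corrected.

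Over all 48 tested members the groups did not overlap for 15 that were lower, or 31.2%, against 12% of all genes, and for 3 that were higher, each an assembly factor, against 15.6%. A further 10 assembly factors with other names had a median log2 fold change of 0.001, with 5 below 0 and 5 above. Among them Tmem126b (ENSMUSG00000030614), the partner of Ndufaf1, measured 19.8, 24.2 and 23.0 CPM in dexmedetomidine libraries and 14.9, 15.3 and 16.6 CPM in vehicle libraries without overlap. Its log2 fold change was 0.52 (SE 0.14, edgeR adjusted p = 0.109), and -0.18 with the correction. Nubpl (ENSMUSG00000035142), which delivers iron-sulfur clusters to complex I, had 10.2, 7.42 and 8.07 CPM after dexmedetomidine and 10.7, 13.4 and 9.89 CPM after vehicle. Its groups overlapped, with a log2 fold change of -0.40 (SE 0.19, edgeR adjusted p = 0.253), -0.26 without vehicle replicate 2, and -0.82 with the correction.

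Ndufa4 (ENSMUSG00000029632), once counted as a complex I subunit and now placed in cytochrome c oxidase, had 549, 636 and 656 CPM in the dexmedetomidine libraries and 599, 682 and 502 CPM in the vehicle libraries, overlapping throughout. Its log2 fold change was 0.05 (SE 0.14), 0.15 without vehicle replicate 2, and -0.49 with the correction. Its relative Ndufa4l2 (ENSMUSG00000040280), known as a target of hypoxia-inducible factor, had 19.2, 12.9 and 13.9 CPM after dexmedetomidine and 17.5, 18.8 and 18.3 CPM after vehicle. Dexmedetomidine replicate 1 was above the vehicle libraries and the other dexmedetomidine libraries were below them, and the log2 fold change was -0.24 (SE 0.17, edgeR adjusted p = 0.438), and 0.20 with the correction. An exon of Ndufa4l2 overlaps Shmt2 on the other strand. The copy genes were close to absent. Ndufb4c had 10, 5 and 14 counts in the dexmedetomidine libraries and 24, 14 and 12 in the vehicle libraries, Ndufs6b had 6, 10 and 14 in the dexmedetomidine libraries and 4, 22 and 1 in the vehicle libraries, and Ndufa11b had 0 counts in all libraries but vehicle replicate 3, which had 6.

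Seen library by library, most of the 36 subunits ranked the libraries alike. After vehicle, replicate 2 was the highest of its group for 33 of 36 subunits and replicate 3 the lowest for 27. After dexmedetomidine, replicate 1 was the highest of its group for 23, and all 3 dexmedetomidine libraries lay below vehicle replicates 1 and 2 for 29. The median over subunits was 7.57, 7.46 and 7.48 log2 CPM in dexmedetomidine replicates 1, 2 and 3, against 7.68, 7.93 and 7.52 log2 CPM in vehicle replicates 1, 2 and 3. The groups thus overlapped at the level of this median, since vehicle replicate 3 lay below dexmedetomidine replicate 1.

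As a share of all gene counts, the 36 subunits made up 0.901%, 0.742% and 0.706% in the dexmedetomidine libraries and 0.972%, 1.10% and 0.965% in the vehicle libraries, with no overlap. This share is taken from a total that includes mitochondrially encoded genes, which were 27.1%, 36.9% and 38.2% of counts after dexmedetomidine and 25.2%, 22.0% and 23.3% after vehicle. Of nuclear gene counts alone, subunits made up 1.24%, 1.18% and 1.14% after dexmedetomidine and 1.30%, 1.41% and 1.26% after vehicle. The groups were still apart, but the ratio of their means was 0.896, where it was 0.774 for the share of all counts, or 0.809 without vehicle replicate 2.

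Some subunits stood apart from the median of the complex. Each level was set relative to the median of the 36 subunits in the same library, which takes out what the subunits share. On this scale the groups did not overlap for 8 subunits that were lower after dexmedetomidine (Ndufv3, Ndufa2, Ndufa12, Ndufv1, Ndufb2, Ndufb10, Ndufa7 and Ndufa13), where 4.24% of all tested genes were so placed. They did not overlap for 4 that were higher (Ndufs4, Ndufa9, Ndufab1 and Ndufs5), where 22.2% of all genes were. The reference comes from the subunits themselves and had a mean of 7.50 log2 CPM after dexmedetomidine and 7.71 after vehicle. It therefore moves other genes upward on this scale, and their shares without it were 12% lower and 15.6% higher. The subunit counts cannot be read against the shares of all genes on this scale. Ndufv3 was -1.22 log2 units from the median after dexmedetomidine and -0.49 after vehicle, a difference of -0.73. Ndufs4 was -0.12 from it after dexmedetomidine and -0.55 after vehicle, a difference of 0.44. For the other 24 the groups overlapped, and none of these differences was tested.

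Mitochondrially encoded subunits of complex I, which form the core of its membrane arm, stood on the other side of 0. Nuclear copies of mitochondrial sequence exist, so their counts are uncertain where reads match both. For mt-Nd1 (ENSMUSG00000064341), which lies next to the Q module, the libraries held 29340.2, 42425 and 46433 CPM after dexmedetomidine and 27304, 22354 and 22048 CPM after vehicle, a log2 fold change of 0.72 (SE 0.18, edgeR adjusted p = 0.108). The proton-pumping subunit mt-Nd4 (ENSMUSG00000064363) had 18892, 33133 and 33042 CPM after dexmedetomidine and 17366, 14174 and 15193 CPM after vehicle, a log2 fold change of 0.86 (SE 0.21, edgeR adjusted p = 0.107). For mt-Nd6 (ENSMUSG00000064368), the subunit gene read from the light strand of mitochondrial DNA, levels were 5647, 9562 and 12778 CPM after dexmedetomidine and 3922, 3097 and 4207 CPM after vehicle, a log2 fold change of 1.32 (SE 0.28, edgeR adjusted p = 0.101). All 7 such genes were higher in each dexmedetomidine library than in each vehicle library, as were 15.6% of all genes. DESeq2 called all 7 higher, against 6.53% of all genes. With the GC and length correction 4 of 7 were above 0 with a median of 0.29, mt-Nd1, mt-Nd4 and mt-Nd6 being at -0.09, -0.08 and 0.43.

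The mitochondrial part of the complex thus stood higher against its nuclear part after dexmedetomidine. The median log2 CPM of the 7 mt-Nd genes exceeded that of the 36 nuclear subunits by 6.64, 7.56 and 7.53 in dexmedetomidine replicates 1, 2 and 3, against 6.15, 5.404 and 6.37 in vehicle replicates 1, 2 and 3. The groups did not overlap, and dexmedetomidine replicate 1 lay nearest to the vehicle libraries. The difference of the means was 1.27 log2 units, and it was 0.98 without vehicle replicate 2. These values are not corrected for GC content, of which the median was 35.7% for mt-Nd genes and 51.4% for the subunits. Median log2 fold changes of the mt-Nd genes and the subunits were 0.86 and -0.30. With the GC and length correction they were nearer to each other, at 0.29 and -0.16. The part of GC content in the difference was not tested. The share of alignments that were not unique was 31.2%, 39.5% and 39.4% in the dexmedetomidine libraries and 31.4%, 28.6% and 28.05% in the vehicle libraries, and its part in the difference was not tested.

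**Figure D3:**
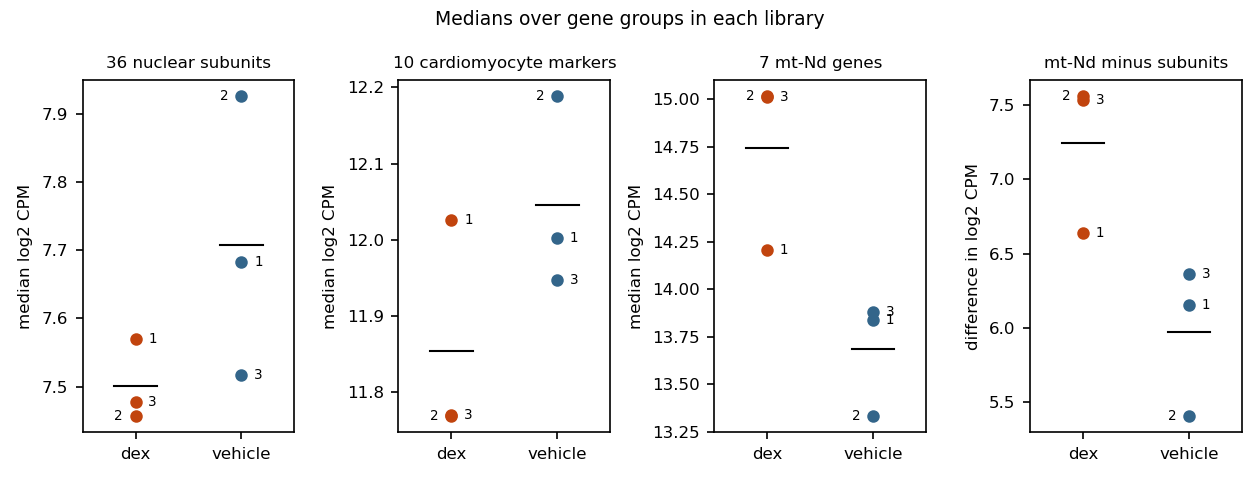
Median log2 CPM of 36 nuclear subunits, 10 cardiomyocyte markers and 7 mt-Nd genes, and the difference between mt-Nd genes and subunits, in each library; points are libraries numbered by replicate and lines are group means. The dexmedetomidine libraries lie at 7.46 to 7.57 and the vehicle libraries at 7.52 to 7.93 for the subunits, while the differences in the last panel are 6.64 to 7.56 for dexmedetomidine and 5.404 to 6.37 for vehicle.

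Nuclear genes of the other respiratory complexes and of ATP synthase lay close to those of complex I. Of 42 such genes 36 had log2 fold changes below 0, against 49.7% of all genes, with a median of -0.23, and 16 were lower at an unadjusted p under 0.05, against 9.03%. EdgeR called 0 of them, where it called 0% of genes. DESeq2 called 7 lower, against 2.9% of genes, and limma-voom 14 lower, against 5.2%. Medians were -0.21 for complex II, -0.29 for complex III, -0.19 for complex IV and -0.18 for complex V with its inhibitor Atpif1. Whether complex I differed from these lists was not tested.

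Cardiomyocyte markers were lower as well, for 7 of 10 genes with a median of -0.20, against 49.7% of all genes below 0. The groups did not overlap for 4 markers that were lower, against 12% of all genes, and for 1 that was higher, against 15.6%. Set against the median of these markers, the median of the 36 subunits was at -4.46, -4.31 and -4.29 log2 units in dexmedetomidine libraries and -4.32, -4.26 and -4.43 in vehicle libraries, with overlapping groups. Among other cell types, 5 of 6 fibroblast markers were higher, where 7408 of 14738 tested genes were. Their summed levels were 1099 to 1319 CPM after dexmedetomidine and 895 to 1004 CPM after vehicle. All 5 neutrophil markers were higher too, but their sums overlapped, at 46.6 to 183 CPM after dexmedetomidine and 60.8 to 119 CPM after vehicle. Endothelial markers were higher for 4 of 6 genes, and macrophage markers were lower for 4 of 6. Markers of mural cells summed to 1287 to 1461 CPM after dexmedetomidine and 972 to 1092 CPM after vehicle, though 4 of the 6 had log2 fold changes below 0. None of the 10 cardiomyocyte, 6 fibroblast or 6 mural markers was at 0 in all libraries, and the part of cell composition in the complex I values was not tested.

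Fold changes followed the GC content of transcripts across all genes, with a Spearman rho of -0.63 over 14329 genes, and less so among 44 members (subunits and Ndufaf genes), with a rho of -0.35. Genes share libraries and are not independent replicates. Within libraries, the rank correlation of each gene's deviation with GC content was -0.14, -0.51 and -0.56 in dexmedetomidine replicates 1, 2 and 3 and 0.38, 0.49 and 0.27 in vehicle replicates 1, 2 and 3. Members had a median GC content of 50.7%, against 49.8% for all tested genes.

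After each library's trend with GC content and transcript length had been taken out, 38 of 48 members had log2 fold changes below 0, against 54.3% of all genes, and the median was -0.16 beside -0.03 for all genes. At an unadjusted p under 0.05, 14 members were lower, or 29.2%, against 7.71% of all genes, and 0 were higher, against 4.93%. EdgeR called 0 members and 0% of genes after the correction. Estimates for members of the lowest GC content were lower with the correction, such as Ndufv2 (42.0% GC), which had -0.53 with the correction and -0.06 without it. Ndufa1 (47.5% GC) and Ndufc2 (48.8% GC), also below the median of all genes, moved toward 0 instead. They stood at -0.37 and -0.40 with the correction and at -0.44 and -0.50 without it. Estimates for members of high GC content were nearer to 0 or above it, such as Ndufs7, which had 0.22 with the correction and -0.16 without it. Among the 44 members, corrected log2 fold changes rose with GC content, with a Spearman rho of 0.50, where it was -0.35 before. Corrected values of the members are thus not free of a trend with GC content. The N and distal arm medians were -0.40 and -0.29 with the correction, those of the proximal arm and the Q module -0.07 and -0.04, and that of the Ndufaf genes -0.13.

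**Figure D4:**
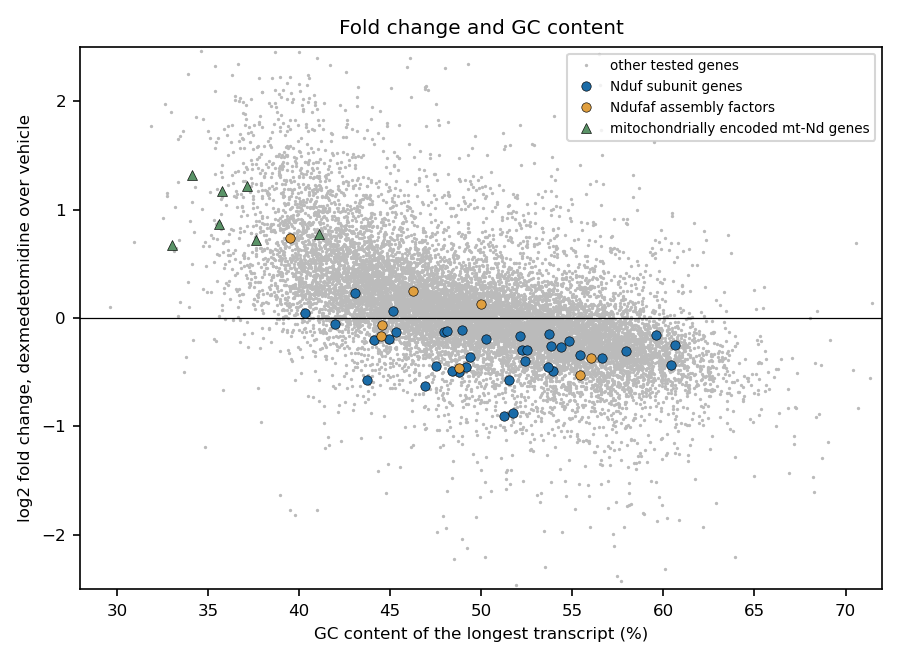
Log2 fold change (y axis) against GC content of the longest transcript (x axis) for tested genes, with subunits, Ndufaf assembly factors and mt-Nd genes marked; 23 genes lie beyond the plotted fold changes and 6 beyond the plotted GC range. Grey points fall from left to right, most subunits lie below 0 between 42.0% and 60.4% GC, and Ndufaf4 at 39.5% GC lies among the AT-rich genes that are higher after dexmedetomidine.

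Levels per length were compared as TPM, each gene's share of counts per base scaled to a sum of 1e+06 per library, with the deposited gene lengths. After vehicle, the 36 subunits ranged from 11.6 TPM for Ndufb2 to 1539 TPM for Ndufb9, with a median level of 342 TPM. Assembly factors were rarer, from 10.8 TPM for Ndufaf5 to 61.5 TPM for Ndufaf8, with a median level of 30.1 TPM. Ndufa4 exceeded all other members, with a level of 2323 ± 89.6 TPM after dexmedetomidine and 2652 ± 225 TPM after vehicle (SD, n = 3 each). Highest by module were Ndufa2 in the N module, Ndufa8 in the proximal arm and Ndufb9 in the distal arm. In the vehicle order of the 36 subunits, 31 of 35 neighbouring pairs had overlapping ranges, so most of the order is not resolved. With the length of the principal transcript in place of the deposited length, the range was 12.9 to 1232 TPM and the rank correlation with the first order was 0.87. By that length Ndufv1 was highest in the N module after vehicle, at 698 TPM against 637 TPM for Ndufa2. Ndufa11 was highest in the proximal arm, at 963 TPM against 450 TPM for Ndufa8, and Ndufb9 stayed highest in the distal arm.

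**Figure D5:**
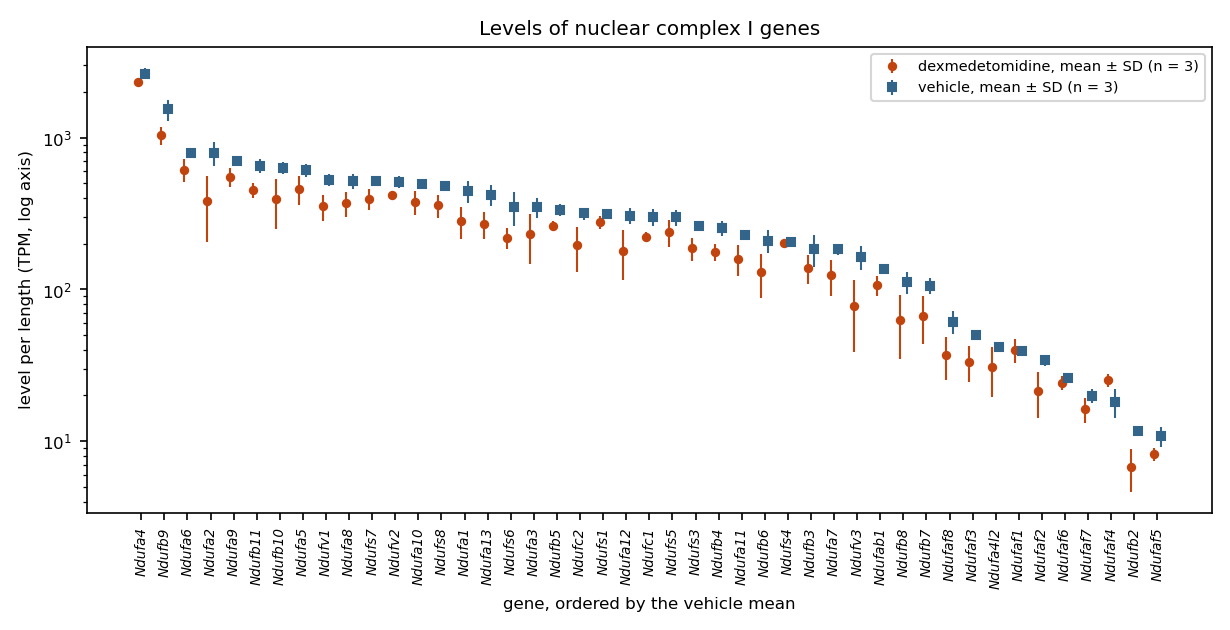
Level per length (TPM, log axis) of 45 members, ordered by the vehicle mean; points are means with bars of 1 SD (n = 3). TPM is a share of all transcripts, the mitochondrial ones included, so differences between groups are read from CPM in the text; Ndufa4 stands first at 2323 TPM after dexmedetomidine and 2652 TPM after vehicle, and the 8 Ndufaf genes stand near the low end.

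Promoters of the members were searched for motifs of factors known to act on genes of the respiratory chain. RefSeq promoters (GRCm38.p6, 250 bases before to 50 after the start) were matched by symbol for 40 members, and both strands were searched. No entry was matched for Ndufa2, Ndufa4l2, Ndufaf6, Ndufb9, Ndufs1 and the 3 copy genes, among others. The NRF1 motif GCGCNTGCG stood in 11 of 40, or 27.5%, against 14.3% of 10727 other tested genes and 7.12% of all 27025 promoters. The YY1 motif AANATGGCG stood in 8, or 20.0%, against 5.52% of other tested genes and 2.76% of all promoters. Its matches in Ndufa9, Ndufaf8, Ndufc1, Ndufs4, Ndufs6 and Ndufs7 lay 10 to 35 bases after the start, within the transcribed part of the window. The ETS motif CCGGAAG was in 6, or 15%, against 18.7% of other tested genes and 9.93% of all. The ERR motif TNAAGGTCA was in 1, Ndufb4, or 2.5%, against 0.858% of other tested genes and 1.43% of all. The Sp1 motif GGGCGG was in 21, or 52.5%, against 67.0% of other tested genes and 38.2% of all. A match is a description of these letters and not a bound site.

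The promoters of Ndufa12 and Ndufb10, among the members farthest below 0, and of Ndufaf4, the member farthest above, are shown because all 3 hold the NRF1 letters, and that of Ndufs4 because it is the highest subunit and holds the YY1 letters. Capitals mark these motifs in the gene's own direction. In Ndufaf4 matches on both strands overlap, and in Ndufb10 the match is on the opposite strand.
Ndufa12, chr10:94198785-94199084, plus strand: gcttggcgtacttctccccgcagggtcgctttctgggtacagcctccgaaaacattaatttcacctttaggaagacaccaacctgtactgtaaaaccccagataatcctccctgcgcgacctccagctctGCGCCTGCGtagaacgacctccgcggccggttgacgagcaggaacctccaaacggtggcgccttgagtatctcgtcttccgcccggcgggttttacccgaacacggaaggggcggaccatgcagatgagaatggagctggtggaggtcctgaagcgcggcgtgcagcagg
Ndufb10, chr17:24724374-24724673, minus strand: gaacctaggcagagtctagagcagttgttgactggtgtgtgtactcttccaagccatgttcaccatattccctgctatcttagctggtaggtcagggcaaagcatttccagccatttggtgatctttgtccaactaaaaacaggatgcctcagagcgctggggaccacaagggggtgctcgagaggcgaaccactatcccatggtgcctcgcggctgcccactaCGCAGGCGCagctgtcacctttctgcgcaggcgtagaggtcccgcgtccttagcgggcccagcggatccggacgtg
Ndufaf4, chr4:24897833-24898132, plus strand: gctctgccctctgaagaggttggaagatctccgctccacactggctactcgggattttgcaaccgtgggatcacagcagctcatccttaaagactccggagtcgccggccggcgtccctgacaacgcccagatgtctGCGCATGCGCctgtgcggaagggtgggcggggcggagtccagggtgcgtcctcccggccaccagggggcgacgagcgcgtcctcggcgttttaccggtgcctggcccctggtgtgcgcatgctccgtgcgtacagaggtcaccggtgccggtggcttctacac
Ndufs4, chr13:114388045-114388344, minus strand: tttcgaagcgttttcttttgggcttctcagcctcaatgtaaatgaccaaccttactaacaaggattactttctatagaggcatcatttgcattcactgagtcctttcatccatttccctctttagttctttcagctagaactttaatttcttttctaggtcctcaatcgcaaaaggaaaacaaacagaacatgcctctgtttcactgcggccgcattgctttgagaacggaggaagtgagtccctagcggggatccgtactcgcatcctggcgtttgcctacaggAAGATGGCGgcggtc

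The NRF1 letters thus stood before members with log2 fold changes below 0 and before 1 above it. Ndufv3 and Ndufb8, which lay farther below 0 than Ndufa12, do not hold them, and Ndufa2 had no promoter entry. The 11 members with the motif had a median log2 fold change of -0.27, and the 29 with a promoter but without the motif a median of -0.30. For YY1 the medians were -0.25 with and -0.28 without the motif. Of the members printed above, only Ndufa12 and Ndufaf4 also hold the Sp1 letters, which are not in capitals. Of the 40 members with a promoter, Ndufa1 and Ndufb11 lie on the X chromosome and the others on autosomes.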

How the data were processed

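The authors deposited 1 table of raw read counts per gene, with a gene length, for 6 libraries made from 1 µg of RNA with poly-T beads. Trim Galore, HTSeq and the build mm9 are named in the submitters' processing notes, without roles, and neither aligner nor strand setting was stated. The 5 summary entries that name no gene were left out; alignments that were not unique equalled 28.05% to 39.5% of the library. Groups followed the sample titles. Of 37620 gene identifiers 32897 matched a symbol. Every pair of libraries differed by more than sampling noise.

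EdgeR 4.0.16 (R 4.3.3, TMM, filterByExpr, robust quasi-likelihood test, Benjamini-Hochberg adjustment over 14738 genes, threshold 0.05) gave log2 fold changes of dexmedetomidine over vehicle, and the biological coefficient of variation was 22.8%. CPM are TMM-scaled, with a prior count of 2 for log2 CPM, and TPM use the deposited gene length. For the GC and length correction a smooth trend of each library was fitted (mgcv 1.9.3). The code was tested on simulated data. Alternatives were DESeq2 1.42.0, limma-voom (limma 3.58.1), DESeq2 size factors, nuclear genes alone, other filters, a replicate block, the correction, and leaving out each library. The principal transcript length for TPM was chosen after seeing the data.

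Members and lists were chosen with earlier results of these data known. Genes given by library were the 6 members with the smallest edgeR p among those lower and the 4 among those higher, the member with the highest TPM in each module, 9 members set by name, the member moved most by the correction, and, outside the members, the 2 other assembly factors with the smallest p and mt-Nd1, mt-Nd4 and mt-Nd6. Ndufv2, Ndufs6 and Ndufaf3, given beside them, were chosen after their values were seen, as were members given by a fold change alone. The rule also names 1 gene that is not reported here. Depth limits rare members most, such as the copy genes with at most 24 counts.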

Additional observations from a re-analysis of the deposited data

How the results depend on the processing

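The number of members called was 0 with edgeR and stayed 0 with DESeq2 size factors, nuclear genes alone, a mean CPM filter of 5 and the GC and length correction. It was 6 with DESeq2, 11 with limma-voom, and 1 (Ndufaf4) without a filter, where 1.88% of genes were called. It ranged from 0 to 5 when 1 library was left out, with 5 without vehicle replicate 3 (Ndufa2, Ndufb2, Ndufc2 and Ndufv3 lower, Ndufaf4 higher). The labels give no pairing of the replicate numbers. Deviations of same-numbered libraries had correlations of -0.05, 0.04 and 0.15, where those of all pairs ran from -0.19 to 0.15. With 3 libraries in each group, these values cannot settle whether the numbers pair them. With a replicate block 1 member was called (Ndufaf4, with 4.32% of genes, against 0% without the block). With block and GC and length correction 1 was called (Ndufb2, with 1.09% of genes). The median log2 fold change ranged from -0.35 to -0.16 with 1 library left out and from -0.28 to -0.15 in the other settings.

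The ratio of subunit shares, dexmedetomidine over vehicle, was 0.774 of all counts, 0.896 of nuclear counts and 0.703 from TPM, and 0.716 to 0.812 with 1 library left out. The mt-Nd minus subunit difference of 1.27 log2 units was 1.23 from TPM and 0.98 to 1.57 with 1 library left out.

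With the GC and length correction, and with it and the block, log2 fold changes took the other sign for Ndufaf4 (-0.019 and -0.018), Ndufs4 (-0.099 and -0.094), Ndufs1 (-0.16 and -0.16), Ndufa4 (-0.49 and -0.45), Tmem126b (-0.18 and -0.18), mt-Nd1 (-0.089 and -0.087), mt-Nd4 (-0.076 and -0.10), Ndufb9 (0.023 and 0.025), Ndufa8 (0.015 and 0.018) and Ndufa4l2 (0.20 and 0.20). Ndufa4 also did so without vehicle replicate 3 (-0.061) and without dexmedetomidine replicate 3 (-0.0044). The cause was not tested. Among all values of single genes under alternatives, 22 took the other sign, 34 newly passed the threshold and 316 did neither.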
